A study of Mus musculus with 16 samples.

Results

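The genes described here are 6 mouse genes of purine breakdown: Uox (urate oxidase), Xdh (xanthine dehydrogenase), Pnp (purine nucleoside phosphorylase), Ada (adenosine deaminase), Gda (guanine deaminase) and Urad (a decarboxylase that acts after urate oxidase). They were chosen by name out of 54838 genes in the count files, and all 6 were found. Uox was put on the list because its RNA had been seen to be lower after carbon tetrachloride and not after partial hepatectomy in these same samples. Its values in those comparisons and in the difference between them are therefore given as a description, with no p-value.

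The samples are whole livers of male wild-type C57BL/6J mice, snap-frozen, from which messenger RNA was sequenced. In the injection experiment, 3 samples came from mice given carbon tetrachloride (CCl4), a solvent that hepatocytes turn into a toxic radical, in a mixture with an equal volume of olive oil. Another 3 samples came from mice given olive oil alone. The mixture and the oil alone were each given at 2 µL per gram body mass by intraperitoneal injection, and livers were taken on day 3. Both groups thus received olive oil, the CCl4 group in a smaller volume. The other experiment was partial hepatectomy (PH), surgery in which a portion of the liver is cut away. The tissue cut away was sampled as PH day 0 (5 samples) and the remaining liver on the third day as PH day 3 (5 samples). The age of the mice is not given in the sources used here, and the labels do not say that each sample came from its own mouse, so p-values measure the spread between samples. In bulk liver RNA, fewer cells of a type and less RNA per cell cannot be told apart.

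Purines from nucleic acids and nucleotides are taken apart in a short chain of reactions, and the liver is a main site of it. Ada removes the amino group of adenosine and deoxyadenosine, Pnp splits nucleosides such as inosine and guanosine into base and sugar phosphate, and Gda turns guanine into xanthine. Xdh oxidises hypoxanthine to xanthine and xanthine to urate. In mice, as in most mammals but not in humans, urate is oxidised further by Uox, a peroxisomal enzyme of hepatocytes, and the unstable product is converted to allantoin by Urah and then Urad.

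Libraries held 2795909 to 8647503 counts. Levels are given in CPM, the usual count scaled by library depth, here with TMM factors, and 3 counts in 1 sample correspond to 0.372 to 1.02 CPM. The liver label was met by all 8 hepatocyte markers, which were detected in every group with a summed level of 80517 to 134045 CPM across samples. Markers of dividing cells summed to 195 to 449 CPM after CCl4 and 6.12 to 6.53 CPM with olive oil, and to 83.8 to 220 CPM at PH day 3 and 2.97 to 8.58 CPM at PH day 0. CCl4 replicate 1 stood apart, with a chi-square per degree of freedom of 71.8 and 72.3 against the other CCl4 libraries, where no other pair of replicates exceeded 23.8, and with a TMM factor of 0.986 beside 1.298 and 1.286. Scaling by library size alone moves the median log2 fold change of all genes by 0.45 for CCl4 and 0.14 for PH, so every change below is relative to the TMM scale.

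On GRCm38 (Ensembl release 95), Uox lies on chromosome 3 from 146570426 to 146632305, plus strand, with 8 merged exons that span 5007 bases, and a gene on the other strand, Dnase2b, overlaps it. Xdh lies on chromosome 17 from 73883895 to 73950196, minus strand, with 41 merged exons, and CT025731.2 overlaps it on the same strand. Pnp lies on chromosome 14 from 50931082 to 50965237, plus strand, with 10 merged exons, and the paralog Pnp2 and the predicted gene Gm49342 overlap it on the same strand. Ada lies on chromosome 2 from 163726584 to 163750239, minus strand, with 12 merged exons. Gda lies on chromosome 19 from 21391307 to 21473445, minus strand, with 15 merged exons, and Urad on chromosome 5 from 147314984 to 147322440, minus strand, with 2. Reads were counted by strand, and reads that fit more than 1 gene were not counted. Of the 50-base windows of Pnp exons, 22% also occur in another gene, mostly Gm49342, so the level of Pnp is uncertain. The same share is 9.6% for Xdh, 0.405% for Gda and 0% for Uox, Ada and Urad.

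The stretch from 250 bases before to 50 bases after the start of the gene is shown for the 3 members whose RNA the results turn on. The sequences are those of RefSeq on GRCm38.p6, where 5 of 6 members matched and Xdh did not. They read 5′ to 3′ on the strand of the gene, and capitals mark matches to the promoter motifs named below. The Uox window is chr3:146596899-146597198 on the plus strand, within the span that Ensembl gives the gene. The Pnp window is chr14:50944053-50944352 on the plus strand, also within the span that Ensembl gives its gene. The Ada window is chr2:163750190-163750489 on the minus strand.
Uox: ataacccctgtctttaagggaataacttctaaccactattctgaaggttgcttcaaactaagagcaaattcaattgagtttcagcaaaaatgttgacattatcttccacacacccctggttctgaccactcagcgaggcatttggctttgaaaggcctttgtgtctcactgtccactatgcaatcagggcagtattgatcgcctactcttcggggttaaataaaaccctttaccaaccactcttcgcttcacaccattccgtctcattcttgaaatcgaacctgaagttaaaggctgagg
Pnp: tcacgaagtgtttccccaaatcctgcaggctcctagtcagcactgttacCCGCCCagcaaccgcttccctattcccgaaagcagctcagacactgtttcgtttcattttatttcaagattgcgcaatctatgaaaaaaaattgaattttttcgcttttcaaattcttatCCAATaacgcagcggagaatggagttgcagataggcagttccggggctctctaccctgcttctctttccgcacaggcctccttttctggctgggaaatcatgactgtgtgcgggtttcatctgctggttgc
Ada: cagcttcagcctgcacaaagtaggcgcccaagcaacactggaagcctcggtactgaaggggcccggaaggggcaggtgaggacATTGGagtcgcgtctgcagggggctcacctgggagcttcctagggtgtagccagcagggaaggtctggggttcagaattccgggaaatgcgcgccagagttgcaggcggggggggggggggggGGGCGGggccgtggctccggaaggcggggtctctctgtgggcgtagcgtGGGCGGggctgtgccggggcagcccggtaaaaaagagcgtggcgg
The Uox window has a G+C content of 43% with 6 CpG pairs, the Pnp window 47.3% with 12, and the Ada window 68% with 20, beside a median of 52.7% and 7 over 32851 RefSeq windows. Both strands were searched for TATAAA, found in 13.6% of all windows, CCAAT (37.4%), the GC box GGGCGG (35.7%), the nuclear receptor half-site AGGTCA (16.3%) and the E2F sites TTTCGCGC or TTTGGCGC (0.813%). With the first base of the gene as 1, Pnp has a CCAAT match at -81 and a GC box at -201. Ada has a CCAAT match at -167 and GC boxes at -44 and 6. None of these letters occurs in the Uox or Urad window, and Gda has 1 CCAAT match at -17. A match describes the letters only, and the motifs were chosen after the windows had been seen.

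Uox was by far the most abundant of the 6 per length of transcript. Its mean level per kb of exon was 437 CPM with olive oil, where it ranked 118th among protein-coding genes, and 136 CPM after CCl4, where it ranked 238th. With olive oil, Urad followed at 22.6 CPM per kb and Xdh at 21.7, then Pnp at 9.22, Gda at 5.29 and Ada at 0.31. The order was the same at PH day 3, with 356 CPM per kb for Uox, 27.6 for Urad, 17.1 for Xdh, 15.9 for Pnp, 4.86 for Gda and 1.69 for Ada. Urad and Xdh with olive oil, and Xdh and Pnp at PH day 3, were within the spread of their samples. In all 4 groups the level of Uox and of Urad was at or above that of 93.6% or more of protein-coding genes. Ada, the first enzyme of the chain, stood at 50.3% to 63.2%.

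Uox, the urate oxidase, was lower after CCl4 in every sample. The 3 CCl4 samples had 692, 614 and 737 CPM and the 3 olive oil samples 2281, 2135 and 2148 CPM. Every CCl4 sample lay below every other sample of the study, and the olive oil samples were the highest of all. The mean was 681 ± 62.4 CPM (SD, n = 3) after CCl4 and 2188 ± 80.8 CPM (SD, n = 3) with olive oil, a log2 fold change of -1.71 ± 0.208 (SE), or 3.27-fold lower. Without CCl4 replicate 1, the library that stood apart, the change was -1.72. Under library size scaling, it was -1.27, and over all alternatives tried it lay between -1.77 and -1.27.

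After PH the groups overlapped. The PH day 0 samples had 1540, 1370, 1872, 1820 and 1667 CPM and the PH day 3 samples 1893, 1905, 1677, 1677 and 1763 CPM. The means were 1654 ± 206 and 1783 ± 112 CPM (SD, n = 5 each), with a log2 fold change of 0.13 ± 0.101 (SE). The difference between the responses was -1.81 ± 0.188 on the log2 scale. Across the groups Uox was highest with olive oil, then at PH day 3 and PH day 0, whose samples overlapped, and lowest after CCl4.

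Markers of hepatocyte zones were measured in the same samples. Over all genes tested, 11.3% were called higher and 11.6% lower after CCl4, and 9.73% and 8.01% after PH. Of 7 pericentral markers, 4 fell after CCl4 (Glul, Cyp2e1, Oat and Slc1a2), and their sum was 650 to 1138 CPM after CCl4 and 9238 to 11045 CPM with olive oil. Of 7 periportal markers, 3 fell (Cyp2f2, Hal and Gls2) and Cdh1 rose, with sums of 1492 to 4832 and 5712 to 6499 CPM. After PH, 4 of 7 pericentral markers fell too (Glul, Cyp2e1, Cyp1a2 and Slc1a2), with sums of 2984 to 4802 CPM at day 3 and 6249 to 8575 CPM at day 0. Then 2 of 7 periportal markers fell (Cyp2f2 and Hal), with sums of 3847 to 5776 and 4220 to 6176 CPM. Of 8 general hepatocyte markers, 1 rose after PH (Alb) and 2 fell, and their sums of 113116 to 134045 CPM at day 3 and 80517 to 94091 CPM at day 0 did not overlap. No zone marker was at 0 in any group. Of 8 general hepatocyte markers, 0 were called by edgeR after CCl4 and 1 (Ttr) had an unadjusted p under 0.05, with a median log2 fold change of -0.11 and sums of 93927 to 124737 CPM after CCl4 and 102904 to 111967 CPM with olive oil. The part of these cells in the level of Uox was not tested. The marker genes were named after their values were seen.

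**Figure D1:**
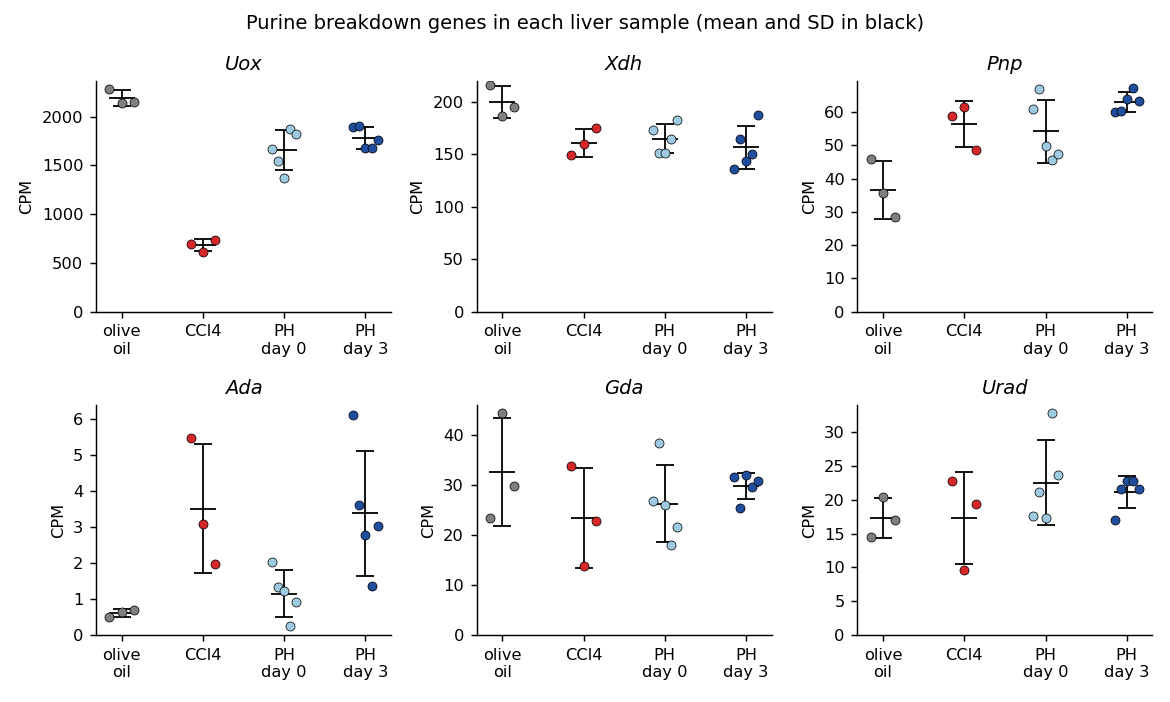
Level in CPM of the 6 genes (vertical axis from 0, 1 panel per gene) in each of the 16 samples, with points for samples and black bars for the mean and SD of each group. The 3 CCl4 samples of Uox lie between 614 and 737 CPM, below all other samples, and Ada stands higher after CCl4 and at PH day 3, at levels of a few CPM.

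Upstream of urate, the first 3 enzymes differed. Ada, which turns adenosine into inosine, was scarce and rose after CCl4. Its samples had 5.48, 3.10 and 1.97 CPM after CCl4 and 0.502, 0.653 and 0.707 CPM with olive oil, from 63 counts in all against 8. The groups did not overlap, and every CCl4 sample was above every olive oil sample. The log2 fold change was 2.41 ± 0.624 (SE, n = 3 each), with an edgeR adjusted p of 0.02. Ada passed the filter on low counts only through the CCl4 samples, with 26, 25 and 12 counts, since the olive oil samples had 2, 3 and 3, so a test was made only because it was high there. Without CCl4 replicate 1 the change was 1.98 (edgeR adjusted p = 0.0472). The pooled ratio of 5.34 has an interval of 2.55 to 12.9 from counting error only. The call did not hold with limma-voom (adjusted p = 0.0611), nor without CCl4 replicate 2 (0.0506) or olive oil replicates 1 (0.08), 2 (0.067) or 3 (0.0718).

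After PH the counts of Ada were too low for the filter, so edgeR gave no value. The samples had 1.33, 1.24, 0.266, 0.927 and 2.03 CPM at day 0 and 6.11, 3.63, 2.80, 1.38 and 3.03 CPM at day 3. The groups overlapped through 1 sample at day 3, and the pooled counts were 26 and 65. The pooled ratio was 3, with an interval of 1.88 to 4.93 from counting error only. Without the filter the log2 fold change was 1.54, with an edgeR adjusted p of 0.0387 (n = 5 each). Ada passed the filter when some single samples were left out. With 1 to 10 counts per sample at day 0 and 6 to 27 at day 3, it did so through the higher group. It was then called without PH day 0 replicates 12 (edgeR adjusted p = 0.0414), 13 (0.0443) or 16 (0.0207) or PH day 3 replicate 15 (0.0128). It missed the threshold without PH day 0 replicate 14 (1.35, edgeR adjusted p = 0.0642) or 15 (0.0587).

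Pnp, which splits nucleosides, also rose after CCl4, and by less. The samples had 59.0, 61.7 and 48.7 CPM after CCl4 and 45.9, 35.7 and 28.5 CPM with olive oil, and the groups did not overlap. The log2 fold change was 0.60 ± 0.19 (SE, n = 3 each), with an edgeR adjusted p of 0.045. The call did not hold with DESeq2 (adjusted p = 0.0525), nor without CCl4 replicate 2 (0.14), olive oil replicate 2 (0.134) or olive oil replicate 3 (0.178). Without CCl4 replicate 1 the change was 0.57 (edgeR adjusted p = 0.0366). Pnp and Pnp2 overlap on the same strand. Their counts together had a log2 fold change of 0.63 with an edgeR adjusted p of 0.0142.

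After PH, Pnp was at 67.0, 49.7, 45.6, 47.5 and 61.0 CPM at day 0 and at 60.2, 60.5, 64.0, 67.4 and 63.4 CPM at day 3. The samples at day 3 were close to each other, and those at day 0 were spread over the same range and below it. The log2 fold change was 0.24 ± 0.113 (SE, n = 5 each), with an interval of 0.02 to 0.46 and an edgeR adjusted p of 0.16. It passed the test under library size scaling (0.38, edgeR adjusted p = 0.0141), without PH day 0 replicate 12 (0.33, edgeR adjusted p = 0.0499) and with Pnp2 added (0.34, edgeR adjusted p = 0.0227).

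Gda, which turns guanine into xanthine, had groups that overlapped in both experiments. Its samples had 33.7, 13.8 and 22.8 CPM after CCl4 and 23.3, 44.4 and 29.7 CPM with olive oil, a log2 fold change of -0.52 ± 0.361 (SE, n = 3 each; edgeR adjusted p = 0.35). Without CCl4 replicate 1 the change was -0.87, with an edgeR adjusted p of 0.0428. It was -0.23 without CCl4 replicate 2 or without olive oil replicate 2, and -0.11 under library size scaling. After PH it was at 38.4, 25.9, 18.1, 21.6 and 26.8 CPM at day 0 and at 31.5, 25.4, 32.0, 29.5 and 30.7 CPM at day 3. That log2 fold change was 0.19 ± 0.165 (SE, n = 5 each), with an edgeR adjusted p of 0.48.

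Xdh, which makes urate, had 149, 160 and 175 CPM after CCl4 and 216, 187 and 195 CPM with olive oil. All 3 CCl4 samples were below all olive oil samples, yet the difference missed the threshold. The log2 fold change was -0.33 ± 0.149 (SE, n = 3 each), with an interval of -0.63 to -0.04 before adjustment and an edgeR adjusted p of 0.13. Without CCl4 replicate 1 it was -0.28 (edgeR adjusted p = 0.12), and under library size scaling the sign turned, to 0.12. After PH it was at 151, 151, 165, 183 and 173 CPM at day 0 and at 136, 165, 144, 150 and 188 CPM at day 3. These groups overlapped, with a log2 fold change of -0.05 ± 0.0968 (SE, n = 5 each; edgeR adjusted p = 0.79).

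Urad completes the conversion to allantoin. Its samples had 22.7, 9.66 and 19.4 CPM after CCl4 and 14.5, 20.4 and 17.0 CPM with olive oil, and the groups overlapped. The log2 fold change was -0.05 ± 0.308 (SE, n = 3 each), with an edgeR adjusted p of 0.93 and an interval of -0.65 to 0.55. Without CCl4 replicate 1 it was -0.30. Its sign turned under library size scaling (0.37), without CCl4 replicate 2 (0.26) and without olive oil replicate 2 (0.08). After PH it was at 21.1, 17.3, 32.8, 23.6 and 17.6 CPM at day 0 and at 17.0, 21.5, 22.7, 22.8 and 21.6 CPM at day 3, with a log2 fold change of -0.07 ± 0.173 (SE, n = 5 each; edgeR adjusted p = 0.83). That sign turned under library size scaling (0.06) and without PH day 0 replicate 14 (0.09).

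Of the 5 members other than Uox, 2 rose after CCl4 (Pnp, and Ada with the filter noted above), where 22.9% of the 11337 genes tested were called, 11.3% as higher and 11.6% as lower. The median log2 fold change of these 5 members was -0.05, beside 0.01 over all genes. After PH, none of the 4 tested members other than Uox was called by edgeR, DESeq2 or limma-voom, and 1 (Pnp) had an unadjusted p under 0.05, where 17.7% of 10546 genes were called, 9.73% as higher and 8.01% as lower. The difference between the responses was called for none of the 5 members other than Uox by edgeR, DESeq2 or limma-voom, and none had an unadjusted p under 0.05, where 5.33% of 11868 genes were called, 1.47% as higher and 3.87% as lower. It was -0.68 ± 0.376 for Gda, 0.39 ± 0.207 for Pnp, -0.25 ± 0.164 for Xdh, 0.05 ± 0.338 for Urad and 0.86 ± 0.857 for Ada (log2 difference ± SE). Markers of other cells were measured beside these levels. After CCl4, 4 of 7 stellate cell and fibroblast markers rose (Pdgfrb and Col1a1 among them), with sums of 340 to 882 CPM after CCl4 and 118 to 161 CPM with olive oil. Cholangiocyte markers summed to 174 to 295 and 53.4 to 107 CPM, and 1 of 2 tested rose. All 5 red blood cell markers fell (Hba-a1 among them), from sums of 434 to 516 CPM to 133 to 244 CPM. None of these markers was at 0. Of 10 macrophage markers, 3 rose (Cd68, Lyz2 and Ccr2) and Timd4 fell, with sums that overlapped, 314 to 439 CPM after CCl4 and 133 to 392 CPM with olive oil, none at 0. None of 10 markers of T, NK and B cells had enough counts to be tested, and their sums rest on a few counts. They summed to 0 to 3.84 CPM after CCl4, with Cd3d and Klrb1c at 0, and to 4.51 to 6.53 CPM with olive oil, with Cd3e and Nkg7 at 0. The part of these cells in the levels of Ada and Pnp was not tested.

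**Figure D2:**
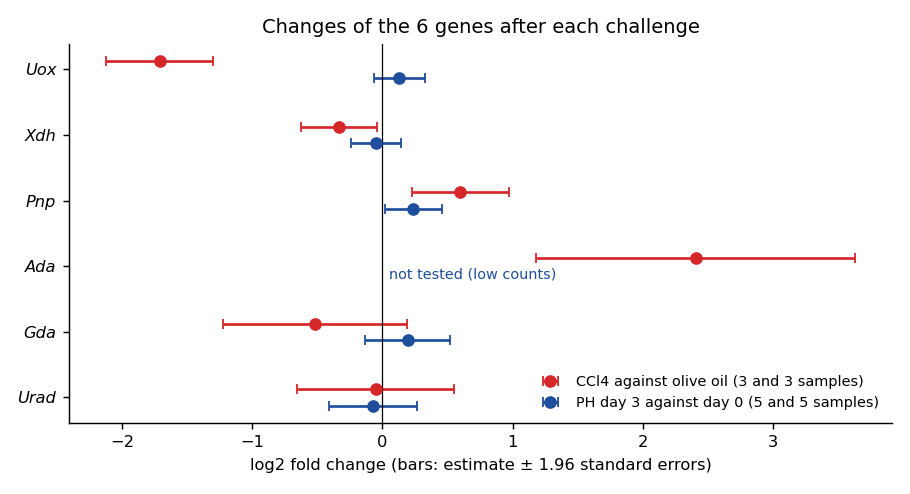
Log2 fold changes (horizontal axis) of the 6 genes after CCl4 against olive oil in red and at PH day 3 against day 0 in blue, with bars of the 95% interval. Uox at -1.71 is the only gene far to the left, Ada at 2.41 lies to the right with a wide bar, and Ada after PH carries no value. Uox was chosen on these comparisons, so its bars are a description and no test. Ada passed the filter on low counts only through its CCl4 samples.

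The liver resected at PH day 0 was compared with the olive oil liver, both without injury. The experiments were run from separate folders per the file headers, so the group and the experiment cannot be told apart. Uox was lower at PH day 0 by a log2 fold change of -0.41 ± 0.114 (SE, n = 5 and 3; edgeR adjusted p = 0.044), with no overlap. The olive oil and the PH day 0 samples both belong to the comparisons that chose Uox, so this p-value is no independent support and is given as a description. The call did not hold under library size scaling (-0.33, adjusted p = 0.168), in a fit of all 4 groups (adjusted p = 0.109), or in 7 of the 8 fits that left out 1 sample, where the adjusted p was 0.053 to 0.14. The 7 samples were olive oil replicates 1, 2 and 3 and PH day 0 replicates 12, 13, 15 and 16. None of the 4 tested members other than Uox was called by edgeR, where 4.14% of 10746 genes were called, 1.79% as higher and 2.35% as lower. Pnp had a log2 fold change of 0.56 ± 0.163 (edgeR adjusted p = 0.057), and it passed the test in 5 of 17 alternatives. These were no filter (edgeR adjusted p = 0.00416), the 4-group fit (0.0485), library size scaling (0.0271), without olive oil replicate 1 (0.75, edgeR adjusted p = 0.0192) and with Pnp2 added (0.65, edgeR adjusted p = 0.00413). Xdh had -0.28 ± 0.1 (edgeR adjusted p = 0.12), with no overlap between the groups. Between the same groups, 2 of 6 endothelial markers were higher at PH day 0 (sums of 136 to 175 against 90.7 to 100 CPM), as were 2 of 5 red blood cell markers (757 to 2060 against 434 to 516 CPM; Hba-a1 among them). Of 7 pericentral markers, Cyp2e1 and Slc1a2 were lower, with sums over all 7 of 6249 to 8575 against 9238 to 11045 CPM. Of 8 hepatocyte markers, Alb was lower, with sums over all 8 of 80517 to 94091 against 102904 to 111967 CPM. Of 7 periportal markers, Cdh1 was higher, while the sums over all 7 overlapped, at 4220 to 6176 against 5712 to 6499 CPM. None of these markers was at 0, and their part in the level of Uox was not tested.

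The other genes of the pathway came from 5 lists. Beside the counts of each list after CCl4 stand 11.3% called higher and 11.6% called lower over all genes tested. After CCl4, 4 of 21 other breakdown genes rose and 3 fell, with a median log2 fold change of 0.22 beside 0.01 over all genes. Lacc1, an enzyme that acts on purine nucleosides, rose from 9.68 ± 2.22 to 23.9 ± 1.11 CPM (1.27 ± 0.217, edgeR adjusted p = 0.0026). Urah, which acts between Uox and Urad, fell from 198 ± 19.7 to 109 ± 5.47 CPM (-0.88 ± 0.147, edgeR adjusted p = 0.0022). Of the 3 enzymes that turn urate into allantoin, Uox, Urah and Urad thus had log2 fold changes of -1.71, -0.88 and -0.05. The nucleotidases Nt5c2 and Nt5c3b rose by 0.68 and 1.65 (edgeR adjusted p = 0.02 and 0.025) and Pnp2 by 0.69 (0.028). Gphn and Mocs1, which make the molybdenum cofactor that Xdh needs, fell by 0.72 and 0.68 (0.0064 and 0.023). When single samples were left out, the calls of Nt5c2, Nt5c3b and Mocs1 each ended in 4 of 6 fits and that of Pnp2 in 3 of 6, with an adjusted p of 0.052 to 0.11 (without CCl4 replicates 2 or 3 or olive oil replicates 1, 2 or 3). The 4 risen genes became 1 without CCl4 replicate 2 or olive oil replicate 3, and 2 without CCl4 replicate 3 or olive oil replicate 2. Under library size scaling 9 genes were called higher, and the 3 calls of lower level ended.

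In purine salvage, which rebuilds nucleotides from bases and nucleosides, 2 of 10 genes rose and 3 fell after CCl4, with a median of -0.11. Dck, the deoxycytidine kinase that also takes purine deoxynucleosides, rose from 4.51 ± 2.13 to 19 ± 5.32 CPM (2.03 ± 0.351, edgeR adjusted p = 0.0026), and Mtap rose by 0.68 (0.03). Among those that fell were the adenylate kinase family members Ak4 by 1.00 and Ak3 by 0.64 (edgeR adjusted p = 0.003 and 0.018). In de novo synthesis, 2 of 13 rose, Prps2 by 1.02 and Pfas by 1.10 (0.014 and 0.039), and 2 fell, Adssl1 by 1.26 and Paics by 0.56 (0.008 and 0.045). The calls of Mtap, Ak3, Pfas and Paics ended in 4 of 6 fits that left out 1 sample, and that of Prps2 in 3, at an adjusted p of 0.062 to 0.13. The samples concerned were CCl4 replicates 2 and 3 and olive oil replicates 1, 2 and 3. The median of de novo synthesis was 0.36, and under library size scaling 8 of these 13 genes were called higher and 1 lower.

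Of 10 transporters of urate and nucleosides, 5 fell and 1 rose after CCl4, with a median of -0.80. Slc17a2, of the sodium phosphate transporter family, fell from 277 ± 25.5 to 88.8 ± 15.7 CPM (-1.66 ± 0.178, edgeR adjusted p = 0.00022). The urate transporter Slc2a9 fell from 55.5 ± 6.44 to 29.5 ± 7.3 CPM (-0.94 ± 0.197, 0.0072). Slc17a3 fell by 0.77, Slc29a1, a nucleoside carrier, by 0.88 and Abcg2, a urate exporter, by 0.66 (edgeR adjusted p = 0.0054, 0.011 and 0.0095), and Slc43a3, a purine base carrier, rose by 0.72 (0.028). Abcg2 lost its call in 1 of 6 fits that left out a sample, Slc29a1 in 3 and Slc43a3 in 5 (the same samples), at an adjusted p of 0.05 to 0.12, and 3 transporters were called lower without olive oil replicate 3. Of 17 genes of the peroxisome, the organelle of Uox, 9 fell, with a median of -0.56. Scp2 fell from 1981 ± 39.6 to 768 ± 52 CPM (-1.39 ± 0.203, edgeR adjusted p = 0.0011), Pipox by 1.00 and Ephx2 by 1.23 (0.0019 and 0.0077). The count of 9 became 4 without CCl4 replicate 2, olive oil replicate 1 or olive oil replicate 3, and 5 without CCl4 replicate 3. Under library size scaling, 1 transporter was called lower and 1 higher, and 2 peroxisomal genes each way.

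**Figure D3:**
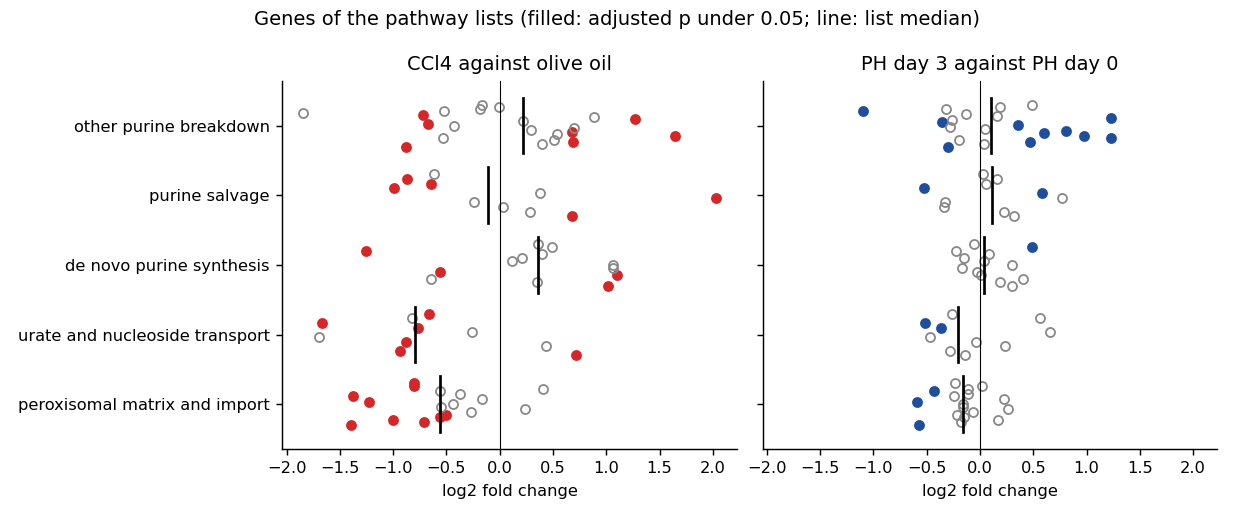
Log2 fold changes (horizontal axis) of the genes of 5 pathway lists (rows) after CCl4 against olive oil on the left and at PH day 3 against day 0 on the right, filled where the edgeR adjusted p was under 0.05, with a black line at the list median. Transport and peroxisomal genes lie mostly left of 0 after CCl4, with medians of -0.80 and -0.56, and nearer to 0 after PH, with medians of -0.20 and -0.16.

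After PH, 7 of 20 other breakdown genes rose and 3 fell, with a median of 0.10 beside -0.01 over all genes. Over all genes tested after PH, 9.73% were called higher and 8.01% lower. Aox3, an aldehyde oxidase related to Xdh, fell from 943 ± 162 to 435 ± 60.2 CPM (-1.09 ± 0.118, edgeR adjusted p = 5.6e-07). Lacc1 rose from 9.69 ± 2.7 to 23.1 ± 5.23 CPM (1.23 ± 0.203, edgeR adjusted p = 1e-04), and Nt5e, which makes adenosine, rose from 3.57 ± 1.14 to 8.54 ± 1.45 CPM (1.23 ± 0.288, 0.0036). Urah fell by 0.30 and Mocs1 by 0.36 (edgeR adjusted p = 0.015 and 0.031). In salvage, 1 of 10 rose, Aprt by 0.58, and Ak4 fell by 0.53 (0.01 and 0.021). In de novo synthesis, 1 of 13 rose, Adss by 0.49 (0.0052). Among transporters, 2 of 10 fell, Slc17a2 by 0.51 and Slc17a3 by 0.36 (0.00015 and 0.019). Among peroxisomal genes, 3 of 17 fell, Ephx2 by 0.60, Scp2 by 0.58 and Agxt by 0.43 (6.8e-05, 8e-05 and 0.00098). The calls of Mocs1 and Ak4 each ended in 4 of 10 fits that left out 1 sample, with an adjusted p of 0.051 to 0.097 (without PH day 0 replicates 13, 14 or 15 or PH day 3 replicates 12, 13 or 15), and that of Slc17a3 without PH day 3 replicate 12 (0.067).

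The difference between the responses passed the edgeR test for 3 of 20 other breakdown genes (Mocs2, Urah and Gphn), 3 of 11 salvage genes (Ak3 and Adk among them), 1 of 13 of de novo synthesis (Ppat), 3 of 10 transporters (Slc17a2, Slc29a1 and Slc17a1) and 4 of 17 peroxisomal genes (Pipox, Scp2 and Cat among them). In each of these 14 the response to CCl4 was below that to PH, which is not by itself a fall after CCl4. Over all genes tested for the difference, 1.47% were called higher and 3.87% lower. Slc17a2 differed by -1.12 (edgeR adjusted p = 0.00033) and Pipox by -1.13 (0.00024), and Pipox was at 173 ± 2.81 CPM after CCl4, 340 ± 36.1 with olive oil, 273 ± 30.7 at PH day 0 and 302 ± 25.3 at PH day 3. For Mocs2, Slc17a2, Pipox and Scp2 the call held in all 16 fits that left out 1 sample. It ended without olive oil replicate 3 for Ak3, olive oil replicate 1 for Cat, CCl4 replicate 2 for Slc29a1, CCl4 replicate 2 or olive oil replicate 1 for Urah, and CCl4 replicate 3 or olive oil replicate 3 for Slc17a1, at an adjusted p of 0.05 to 0.12. For Ppat, Gphn and Adk it ended in 10 to 15 of the fits, which left out samples of all 4 groups in turn.

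The genes whose pattern over the 16 samples was most like that of a member were ranked over 9162 protein-coding genes with a mean of at least 5 CPM. The measure was the root mean square difference of log2(CPM + 1) after each gene was centred on its own mean. For Uox, whose own spread on that scale was 0.581, the nearest were Car5a (0.214), Arsa (0.236), Slc2a2 (0.239), Hgd (0.243) and Acsf2 (0.244), where the median over all genes was 0.65. Their log2 fold changes after CCl4 were -1.83, -1.26, -1.83, -0.98 and -1.32, and after PH -0.09, 0.18, -0.10, -0.01 and 0.15. Car5a is a mitochondrial carbonic anhydrase, Slc2a2 the glucose transporter of hepatocytes and Hgd an enzyme of tyrosine breakdown. For Xdh the nearest were Tpp1 (0.115), Skp1a (0.118) and Dnaja1 (0.125), against an own spread of 0.176. For Pnp they were Ubqln1 (0.168), Ski (0.177) and G3bp2 (0.179), against 0.33. For Gda they were Cd302 (0.201), Serpina10 (0.229) and Apon (0.246), against 0.383, and for Urad Gaa (0.24), Gtpbp3 (0.255) and Zfp809 (0.255), against 0.348. For Ada they were Rhno1 (0.348), Calu (0.362) and Kctd3 (0.375), against 0.721. These genes were picked for their likeness to a member over these same samples, so their like responses follow from the choice. The samples also share their libraries, so nearness in this measure is a description only.

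**Figure D4:**
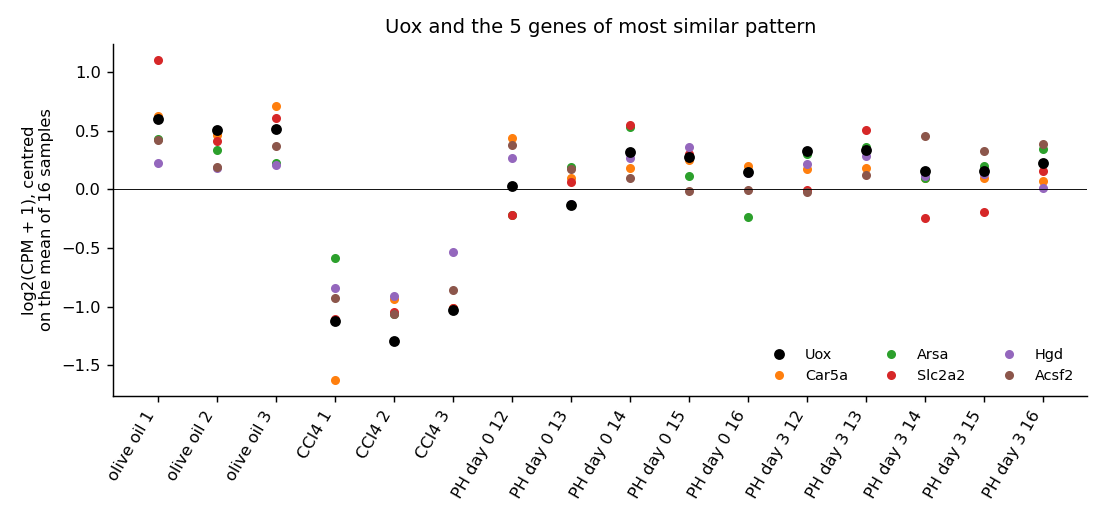
Log2(CPM + 1) centred on each gene's mean over the 16 samples (vertical axis) in each sample (horizontal axis), for Uox in black and its 5 nearest genes in colour. All 6 lie lowest in the 3 CCl4 samples, and the distance of the 5 genes from Uox is 0.214 to 0.244. The 5 genes were picked for this likeness.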

How the data were processed

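Polyadenylated RNA of 16 liver samples in 4 groups was sequenced. The deposited values are unnormalized read counts for each gene, in 1 file for each sample. Per the file headers, featureCounts 1.6.2 counted reverse-stranded reads over the exons of Ensembl release 95 genes, without options for multi-mapping or multi-overlapping reads. STAR 2.5.1, Subread and GRCm38 are named in the submitters' processing notes. Symbols came from GENCODE M21 and matched 54809 of 54838 gene identifiers.

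Replicate pairs differed by a chi-square per degree of freedom of 5.51 to 72.3, and no files of the 26 pairs were identical. CCl4 was compared with olive oil, PH day 3 with PH day 0 and PH day 0 with olive oil, and the difference of both responses was tested over all samples. The test was the robust quasi-likelihood F test of edgeR 4.0.16 with TMM scaling in R 4.3.3, after a filter with a minimum count of 10 and a minimum total of 15, and a gene was called where its p, adjusted by Benjamini and Hochberg over all genes tested, was under 0.05. Standard errors came from the F statistic and the size of the log2 fold change, and intervals are 95% intervals from them. Pooled ratios have 95% intervals for counting error only. Genes were named by rule: the 6 members, the 3 genes of smallest adjusted p among those called in each list and all members behind a count of 5 or fewer, and the genes of most similar pattern (5 for Uox and 3 for the others). The members and lists were chosen with earlier results of these data known. The alternatives comprised DESeq2 1.42.0, other scalings, limma-voom (limma 3.58.1), other filters, an adjusted p under 0.01, a 4-group fit, the replicate number as a block, each sample left out and, added after the data were seen, Pnp and Pnp2 summed. Some genes that the rule names are not reported here. The procedure was tested on simulated data. Python 3.11.15 with pandas 2.3.3, numpy 2.4.6 and matplotlib 3.10.9 drew the figures and wrote tables.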

Additional observations from a re-analysis of the deposited data

Results flagged for a closer look

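Urad at PH day 3 was at 17 CPM in replicate 12, below the other 4 samples of its group, and the gap to the nearest was 0.785 of the group's range (limit 0.71). This was 1 of 12 groups checked, and chance marks about 1 in 20 groups. It had no part in a call.

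For 12 pathway genes described here the response to CCl4 differed from the response to PH by an edgeR adjusted p under 0.05. In each the response to CCl4 was below that to PH, which is not by itself a fall after CCl4. Mocs2, Adk, Ppat and Slc17a1 were not called in CCl4 against olive oil. The log2 differences were -0.75 for Mocs2, -0.55 for Urah, -0.55 for Gphn, -0.67 for Ak3, -0.61 for Adk, -1.02 for Ppat, -1.12 for Slc17a2, -0.82 for Slc29a1, -1.35 for Slc17a1, -1.13 for Pipox, -0.79 for Scp2 and -1.10 for Cat. The olive oil and PH day 0 samples come from different experiments, and the difference cannot be told apart from that.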

How the results depend on the processing

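Alternatives tried were library size scaling, DESeq2 size factors, DESeq2, limma-voom, no filter, at least 1 CPM, an adjusted p under 0.01, a 4-group fit, the replicate block and leaving out each sample. Uox kept its direction in the CCl4 comparison and the difference under all of them. In the counts of members below, a member lower at PH day 0 against olive oil is Uox. It was chosen on comparisons that hold these samples, so that count is a description and no test.

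Library size scaling gave 2973 genes higher and 423 lower for CCl4 (against 1279 and 1320), 1617 and 432 for PH (1026 and 845), 481 and 153 for the difference (174 and 459), and 166 lower for PH day 0 against olive oil (253). Under it 1 member (Pnp) was called higher after PH, and at PH day 0 1 higher (Pnp) and 0 lower. Xdh turned to 0.12, 0.085 and 0.038 for CCl4, PH and the difference, and Urad to 0.37 and 0.056 for CCl4 and PH. With an adjusted p under 0.01 the genes called were 1258 (against 2599), 1090 (1871), 255 (633) and 204 (445) for CCl4, PH, the difference and PH day 0 against olive oil. At that threshold 0 members were higher after CCl4 and 0 lower at PH day 0 (against 1, Uox). DESeq2 and limma-voom each called 1 member higher after CCl4 (against 2), and not the same one. It was Ada, with the filter noted above, for DESeq2 and Pnp for limma-voom. Limma-voom turned the difference of Urad to -0.13. For PH, no filter, at least 1 CPM and the 4-group fit each called 1 member higher (Ada). Ada was too low for the main filter there, with 1 to 10 counts per sample at day 0 and 6 to 27 at day 3. These calls are therefore a description only. For PH day 0 against olive oil, no filter gave 777 genes called and 1 member higher, and the 4-group fit 287 genes, 1 member higher and 0 lower. The cause was not tested.

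Leaving out 1 sample gave 1492 to 3513 genes called for CCl4, with 0 to 2 members higher and 0 to 1 lower. It gave 0 to 2 members higher for PH, which were Pnp and, where it passed the filter, Ada. It gave 384 to 931 genes called for the difference. For PH day 0 against olive oil it gave 181 to 447, with 0 to 1 members higher and 0 to 1 lower (Uox). The lowest counts of genes came without olive oil replicate 3, and that for CCl4 was also low without CCl4 replicate 2 (1623) and olive oil replicate 1 (1629), and that for the difference without CCl4 replicate 2 (419). Urad ranged from -0.30 to 0.26 for CCl4, -0.15 to 0.092 for PH and -0.20 to 0.36 for the difference. Of 350, 247, 336 and 128 values of named pathway genes (CCl4, PH, difference, PH day 0), 70, 18, 89 and 36 lost their call and none reversed.

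PH samples share numbers at both days, but in the labels 13 and 14 carry an added letter N at day 3 only. Deviations of same-numbered samples correlated at -0.05 to 0.12, 1 of 5 above 0.1, and 2 of 5 correlated best with their own number. Deviations in resected and in regrowing liver need not be alike in 1 mouse. These values therefore cannot decide whether a number marks 1 mouse, which the labels do not say. The replicate block gave 1864 genes called for PH (against 1871) and 469 for the difference (against 633), and changed no member's call. Depth limits Ada most, at 1 to 27 counts per sample.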

Other observations

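Between the livers without injury, PH day 0 and olive oil, a few genes of the pathway lists were called by the edgeR test (n = 5 and 3). Over all 10746 genes tested, 4.14% were called, 1.79% as higher and 2.35% as lower. Not called were 17 of 20 other breakdown genes, 8 of 10 of salvage and 12 of 13 of de novo synthesis. The same held for 8 of 10 transporters and 17 of 17 peroxisomal genes. The experiment cannot be told apart from the group. Pnp2 was higher at PH day 0 (35.6 ± 5.98 against 20.2 ± 3.92 CPM, log2 fold change 0.81 ± 0.175, adjusted p = 0.0078), as were Mocos, which activates Xdh (0.48, 0.036), and Slc43a3 (0.78, 0.028). Among those lower at PH day 0 were Ak4 (34.9 ± 3.76 against 63.4 ± 7.38 CPM, -0.87 ± 0.13, adjusted p = 0.00027), Ppat (-0.83, 0.016), Slc17a2 (-0.40, 0.02) and Aox1 (-0.37, 0.031). Of the 7 calls named here, that of Ak4 held in all 8 fits that left out 1 sample. Those of Mocos, Slc43a3 and Aox1 each ended in 6 of 8 (adjusted p = 0.051 to 0.17), among them all that left out an olive oil sample. Those of Pnp2 and Slc17a2 ended without olive oil replicate 1 or 3 (0.055 to 0.14), and that of Ppat without olive oil replicate 2 or 3 (0.093 to 0.12).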
